A study of Mus musculus with 4 samples.

Results

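Class 7 is 1 of 14 clusters of nuclei that the authors deposited for a single-nucleus ATAC-seq study of the mouse mammary gland. Its members were taken as every nucleus carrying class number 7 in the deposited table, which gave 1138 of 7846 nuclei (14.5%). They are described here as adult luminal progenitor-like nuclei, because the summed level of the progenitor marker genes Lcn2, Kit, Plet1, Muc4 and Ccl9 was higher in them than in any other adult cluster with at least 50 nuclei, in both adult libraries. Promoter-rich refers to the share of their reads in promoters, which says nothing of lineage. Every library came from wild-type mammary gland of CD1 mice, an outbred stock, from which EpCAM+ and Lin- cells were sorted. Adult mice were 8 weeks old and fetuses were at embryonic day 18, with 2 biological replicates at each stage. The labels do not say whether animals were pooled. All values below are for the adult libraries, given for replicate 1 and then replicate 2. Their nuclei were tagmented in 32 wells per replicate at 2000 nuclei per well and re-sorted at 20 nuclei per well into 768 wells, so some barcode pairs may stand for several nuclei; doublets were not called.

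The mammary epithelium is a bilayer of contractile basal cells and inner luminal cells. Luminal cells are divided into mature cells, which carry the oestrogen and progesterone receptors, and progenitors, which mostly lack them and give rise to the milk-secreting alveoli. Luminal progenitors are known for the receptor tyrosine kinase KIT, for the ETS factor ELF5 that drives alveolar fate, and for antibacterial secretions. ATAC-seq reads mark chromatin open to the Tn5 transposase; they show accessibility, not transcription.

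The 4 libraries held between 6028168 and 19304830 reads in kept nuclei, no barcode was shared between libraries, and the deposited read count of each of the 7846 nuclei equalled the reads listed for its barcode. Levels are CPM, the reads over a feature divided by all reads of that class in that library and scaled to a common total, and differences are on the scale log2(CPM + 2), which understates the change of low features. Class 7 summed to 3059522 and 2634438 reads. It was set against the mean, taken on that log2 scale and within each library, of the other adult clusters with at least 50 nuclei, which were 1, 2, 3, 6, 8, 10 and 11 in both replicates, with 14 added in replicate 2, and against class 3. Classes 3 and 10 had progenitor markers too: the summed level of the 5 genes was 828 and 624 CPM in class 7, 380 and 342 in class 3 and 545 and 354 in class 10. Class 10 also had 1008 and 782 CPM over 12 mature luminal genes, against 543 and 632 in class 3, and was kept among the other classes. A gene's level in the other classes is that mean turned back to CPM, unless called an arithmetic mean. Because the authors drew the clusters from reads of these same nuclei, a class against the rest is no test. A feature is therefore called higher or lower only by a fold rule: a difference of at least 1, that is, 2-fold, in both adult libraries. Both ends of a fragment are listed as separate reads, so exact intervals and floors cover counting error only.

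Class 7 was almost wholly adult. It held 675 of 2465 nuclei of adult replicate 1 (27.4%, exact 95% binomial interval 25.6 to 29.2) and 462 of 2804 nuclei of replicate 2 (16.5%, 15.1 to 17.9), a mean of 21.9% ± 7.71 (SD, n = 2). The adult intervals do not overlap, so the replicates differed by more than counting error. Fetal replicate 2 gave 1 of 1695 nuclei and fetal replicate 1 gave 0 of 882, which allows a share of up to 0.340% by a floor of 3 nuclei (exact upper bound 0.417%). With 2 libraries per stage an exact permutation test cannot pass 0.05, and none was made. There were 2.74 and 1.35 class 7 nuclei per class 3 nucleus. Class 7 nuclei were spread over combinations of barcode segments that were taken to mark the tagmentation wells, in 31 of 31 and 31 of 32 combinations. The labels do not say which segments mark those wells, so this reading of the combinations is an assumption. Among combinations with at least 20 nuclei the class took 12.2% to 48.6% in replicate 1 and 11.2% to 27.0% in replicate 2. The median class 7 nucleus had 3866 and 4897.5 reads, below the 5253.5 and 6058 of class 3.

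The class was rich in promoter reads. The median nucleus had 27.7% and 26.7% of its reads in the authors' promoter regions (27.2% ± 0.738, SD, n = 2), with the central 80% of nuclei between 23.0% and 32.6% in replicate 1 and between 21.9% and 31.1% in replicate 2. Class 3 had 21.0% and 20.9% (20.9% ± 0.0907), and the gap was far wider than the spread between replicates. Of class 7 nuclei, 96.0% and 93.5% lay above the class 3 median, while 4.47% and 6.71% of class 3 nuclei lay above the class 7 median. The main basal cluster, class 1, was at 25.4% in both libraries, and the main mature luminal cluster, class 2, at 25.7% and 23.2%. The shares of reads outside both region lists ran the other way, 28.8% and 31.4% in class 7 against 36.7% and 39.2% in class 3. Within the class, nuclei below the class median read count had a median share of 27.8% and 27.0%, and the rest slightly less, 27.7% and 26.3%. The part of read depth in the promoter share was not tested.

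**Figure D1:**
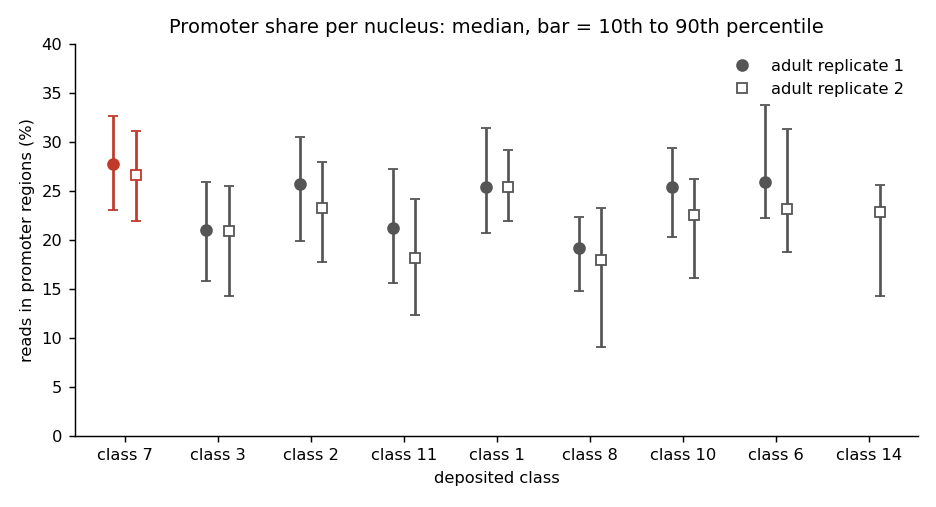
Percent of a nucleus's reads in promoter regions for each adult class with at least 50 nuclei in each library, with the median over nuclei as a point and a bar over the central 80% of nuclei. Among these class 7 has the highest median in both libraries, 27.7% and 26.7%, against 21.0% and 20.9% in class 3, and its bars overlap those of the other classes except class 8 in replicate 1.

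The excess sat at gene starts. Summed over 32817 gene starts, the 100-base bin just upstream of the start held 61044 and 59514 CPM in class 7 and 40297 and 41549 in class 3. Class 1 had 50429 and 52047, class 2 had 57040 and 51193, and the lowest were the promoter-poor basal nuclei of class 8, with 35318 and 33656. Divided by the flank beyond 2500 bases, the class 7 peak was 26.6 and 26.2 times the flank, and the class 3 peak 17.9 and 19.8 times. Class 7 was highest by either measure in both libraries among the 6 classes profiled.

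**Figure D2:**
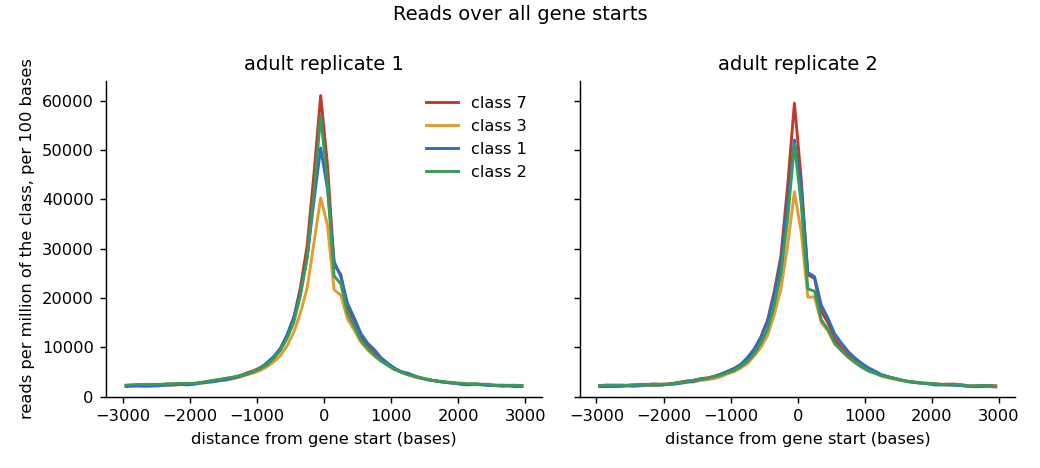
CPM in 100-base bins by distance from the gene start in bases, summed over all gene starts, for classes 7, 3, 1 and 2, with 1 panel per adult library. The class 7 peak reaches 61044 and 59514 CPM, the class 3 peak 40297 and 41549.

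The 5 marker genes were more open in class 7 than in the other adult clusters. Counted over each gene's span with 2000 bases on either side, 222 of 16062 genes (1.38%) were higher than the other classes and 301 (1.87%) lower, and the median gene stood at 0.15. All 5 markers, which also name the class and so give it no separate support, were among the higher genes, with a median difference of 2.23. These counts depend on how the other classes are averaged: with them pooled into 1 sum, 115 genes were higher and 487 lower, so the share of higher calls fell from 42.4% to 19.1% while the 5 markers stayed called.

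Lcn2 encodes lipocalin-2, which withholds iron from bacteria by binding their siderophores, and spans chr2:32384637-32387739 (mm10). Its level was 199 and 155 CPM in class 7 (177 ± 31.0, SD, n = 2), against means of 21.3 and 12.2 in the other classes. The difference was 3.29 ± 0.26, the largest of any gene that passed the rule with at least 20 reads. No other class overlapped it: the next was class 10, a cluster with a median of 8340.5 and 10406 reads per nucleus, with 118 and 56.1 CPM, class 3 had 49.0 and 50.2, class 1 had 46.9 and 40.8, and class 2 had 4.51 and 0.403. The counting window also touches 1110008P14Rik.

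Kit encodes the receptor for stem cell factor and spans chr5:75574987-75656722. It stood at 146 and 156 CPM (151 ± 7.51), with a difference of 2.94 ± 0.18 from the other classes. Class 3 was close behind with 125 and 122 CPM, a difference of 0.28 ± 0.09. Classes 7 and 3 were thus near each other in Kit, and class 10 came next with 64.9 and 81.2 CPM.

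Plet1 encodes a GPI-anchored surface protein of epithelial progenitors and spans chr9:50494525-50505639. It had 389 and 243 CPM (316 ± 103), a difference of 2.23 ± 0.39. Class 3 had 142 and 121 CPM, and the difference from it, 1.44 and 1.00, lay just under the fold rule in replicate 2. Class 10 again came next, with 324 and 158 CPM. Muc4, a membrane mucin at chr16:32735886-32782391, had 73.9 and 55.4 CPM (difference 1.89 ± 0.03) and 53.9 and 41.9 in class 3. In replicate 2 class 10 was just above it, with 56.1 CPM. Ccl9, a chemokine gene at chr11:83572917-83578636, had the lowest level of the markers, with 20.3 and 13.7 CPM from 62 and 36 reads (difference 2.22 ± 0.31). It was still above all other classes in both libraries.

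**Figure D3:**
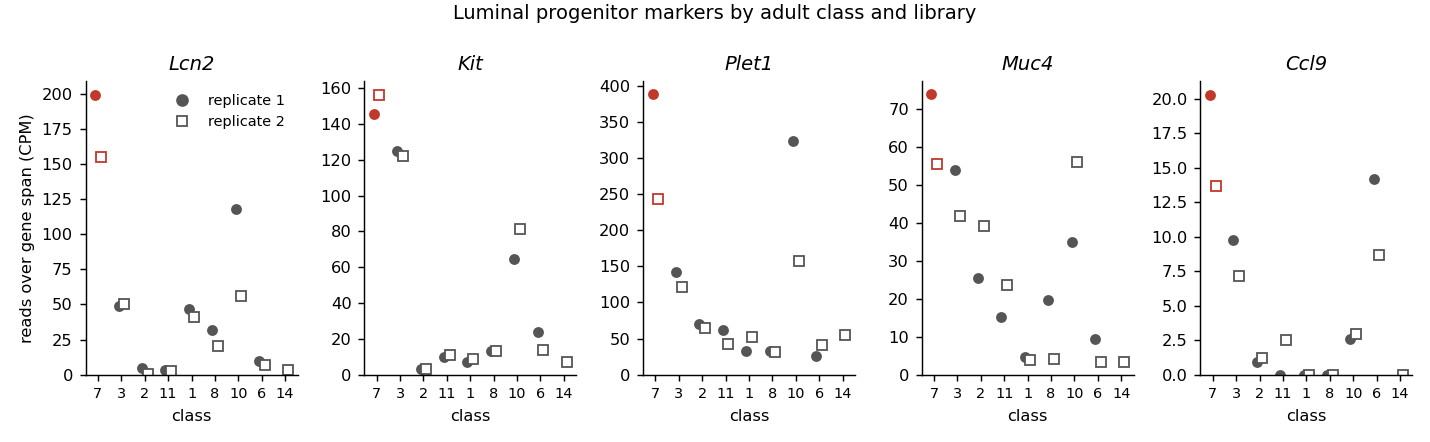
Levels in CPM, on linear axes, of the 5 marker genes in each adult class, with 1 point per library. Class 7, in red, is highest in both libraries for Lcn2, Kit, Plet1 and Ccl9, and in replicate 1 alone for Muc4.

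Nucleus by nucleus the same markers set class 7 apart from the mature and basal clusters, more than from classes 3 and 10. Every nucleus was thinned to 2000 reads, the lowest number any nucleus had. At least 1 of the 5 markers then had a read in 64.3% and 56.9% of class 7 nuclei, in 44.3% and 39.7% of class 3, in 54.9% and 42.6% of class 10, in 10.9% and 13.4% of class 1 and in 13.7% and 16.0% of class 2. At least 2 of them had a read in 22.7% and 19.0% of class 7, 6.91% and 8.16% of class 3, and 15.9% and 4.92% of class 10. Single genes differed in how far they separated classes 7 and 3. Lcn2 had a read in 23.0% and 19.9% of class 7 nuclei, 6.50% and 6.12% of class 3, and 0.497% and 0 of class 2. Kit had one in 19.9% and 20.8% of class 7 and in 18.7% and 17.8% of class 3, which differ by little beside their intervals. Without thinning, 29.2% of class 7 nuclei had an Lcn2 read in each library.

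The promoters of the markers and of Wfdc18, Elf5 and Nfkbia were searched because the class is rich in promoter reads. Letters bound by ELF-type ETS and NF-kB factors, whose motif scores were high in the class, can be looked up in them. Only the windows that held a match to one of these letter strings are shown. C/EBP and AP-1 letters were also searched and are not marked. Kit and Elf5 have 2 listed starts each, and the start with the most class 7 reads in its window was used. Each line gives the 250 bases upstream of the start from RefSeq (GRCm38.p6), 5' to 3' on the gene's strand, with capitals for AGGAAG, the core of ELF-type ETS sites, on either strand (CTTCCT on the other), and for the kappaB consensus.
Lcn2: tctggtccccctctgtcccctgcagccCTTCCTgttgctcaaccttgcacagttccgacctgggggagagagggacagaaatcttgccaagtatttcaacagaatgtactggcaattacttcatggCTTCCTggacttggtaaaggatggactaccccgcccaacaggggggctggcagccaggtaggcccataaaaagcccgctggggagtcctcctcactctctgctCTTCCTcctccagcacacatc
Kit: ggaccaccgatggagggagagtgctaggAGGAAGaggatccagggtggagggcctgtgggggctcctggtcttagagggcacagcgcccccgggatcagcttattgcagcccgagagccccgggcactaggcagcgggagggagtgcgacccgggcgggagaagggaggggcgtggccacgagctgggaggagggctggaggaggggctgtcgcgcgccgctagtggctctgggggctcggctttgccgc
Wfdc18: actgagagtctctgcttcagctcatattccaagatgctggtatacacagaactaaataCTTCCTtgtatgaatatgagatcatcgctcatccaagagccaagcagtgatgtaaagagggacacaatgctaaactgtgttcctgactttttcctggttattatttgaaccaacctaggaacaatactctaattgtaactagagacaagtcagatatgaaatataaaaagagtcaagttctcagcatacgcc
Ccl9: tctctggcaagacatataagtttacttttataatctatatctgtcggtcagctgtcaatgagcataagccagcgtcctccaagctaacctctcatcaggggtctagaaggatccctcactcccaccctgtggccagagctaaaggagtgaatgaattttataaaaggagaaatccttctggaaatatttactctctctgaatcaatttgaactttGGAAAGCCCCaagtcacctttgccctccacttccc
Nfkbia: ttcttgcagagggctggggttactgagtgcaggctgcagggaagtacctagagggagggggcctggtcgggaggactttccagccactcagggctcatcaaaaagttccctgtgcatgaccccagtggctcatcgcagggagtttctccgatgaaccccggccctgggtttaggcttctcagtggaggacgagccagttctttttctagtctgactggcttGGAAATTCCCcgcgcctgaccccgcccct
They lie at chr2:32387740-32387989 (minus strand), chr5:75574737-75574986 (plus), chr11:83708754-83709003 (plus), chr11:83578637-83578886 (minus) and chr12:55492648-55492897 (minus). The Lcn2 window held AGGAAG 3 times, beginning at positions -223, -124 and -21, where -1 is the base before the start, and Kit and Wfdc18 held it 1 time each. Ccl9 and Nfkbia each held 1 kappaB match, at -35 and -29, and no window held both motifs. Among 32851 promoters of that length 29.5% held AGGAAG and 7.25% held the kappaB consensus. The windows of Plet1, Muc4 and Elf5 held neither motif and are not shown, which says only that these letters are not in those 250 bases.

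Reads in those promoters followed the gene levels for Lcn2 and less so for Kit. The Lcn2 window, with 50 bases past the start added, had 38.2 and 34.9 CPM in class 7 and 13.5 and 14.8 in class 3. The basal class 1 was nearer, with 24.6 and 17.2, and the arithmetic means of the other classes were 9.71 and 6.18. The Kit window had 20.3 and 16.3 CPM against 20.8 and 23.5 in class 3, so class 7 was the lower of the pair there. Nfkbia had 47.7 and 36.1 against 30.6 and 30.7, and Wfdc18 had 19.6 and 23.2 against 17.8 and 17.9. Class 2 was nearer to class 7 at Nfkbia, with 40.6 and 33.9. Elf5 had 5.88 and 5.69 CPM against 7.35 and 8.37 in class 3, and Ccl9 rested on 12 and 4 reads. The Kit and Elf5 windows were picked by class 7 reads, so their class 7 levels are not free of that choice. In bins of 500 bases around the starts, the Lcn2 signal was highest in the bin directly upstream. It was 45.8 and 44.8 CPM there, against 12.2 and 14.0 in class 3 and 25.8 and 23.1 in class 1. Plet1 in replicate 1 was highest 8000 to 8500 bases into the gene, at 23.9 CPM against 4.28 in class 3. In replicate 2 its highest bin was the one directly upstream of the start, at 19.7 CPM against 11.6 in class 3 and 16.3 in class 2, so the place of the Plet1 peak did not repeat.

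**Figure D4:**
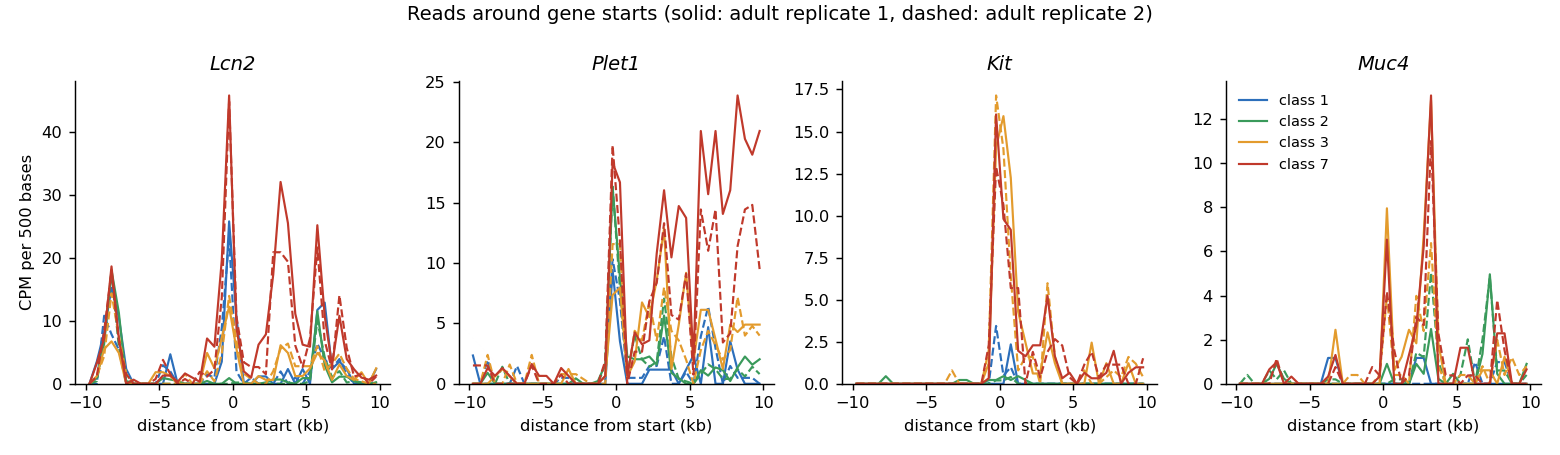
CPM in 500-base bins by distance in kb from the starts of Lcn2, Plet1, Kit and Muc4, up to 10000 bases either side, for classes 7, 3, 1 and 2, with adult replicate 1 solid and replicate 2 dashed. The Lcn2 bin just upstream of the start reaches 45.8 and 44.8 CPM in class 7, 25.8 and 23.1 in class 1 and 12.2 and 14.0 in class 3.

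Distal regions near the markers were more often higher in class 7 than distal regions at large. These genes name the class, and regions inside them or at their ends share reads with their gene spans. The counts near them are therefore no separate support. Of 36599 distal regions tested, 3834 (10.5%) were higher than the other classes and 1491 (4.07%) lower. Within 50000 bases of the 5 markers 16 of 33 (48.5%) were higher and 0 lower. For the longer lists counts were summed over genes, so a region near several genes of a list counts for each. Near 12 other progenitor genes 16 of 53 (30.2%) were higher, and near 12 general luminal genes 42 of 145 (29.0%). Near 12 mature luminal genes 0 of 54 were higher, and near 12 basal genes 5 of 67 with 6 lower. Krt8 (10 of 22 higher) and Krt18 (9 of 18) share regions, so these percents are not shares of distinct regions. With the other classes pooled, 2176 distal regions were higher and 4931 lower, so that split (72.0% against 30.6% higher) rests on the averaging.

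Among the named distal regions the largest difference was that of chr2:32383710-32384709, which holds the 3' end of Lcn2. It had 65.0 and 45.9 CPM in class 7, 11.0 and 14.4 in class 3, 2.34 and 2.95 in class 1, and 1.13 and 0 in class 2. Its difference was 3.51 ± 0.17, and both values lay above every other class. The deposited Cicero scores measure how far a pair of regions is open together, and name no library or class. In them its score with the Lcn2 promoter region 3673 bases away was 0.707. Only 0.514% of 12719512 listed pairs reached 0.25, but these include pairs much further apart, so that percent is no background for close pairs. The promoter region at the start of 1110008P14Rik, 2372 bases away, scored 0.574, so high scores were not confined to Lcn2. A region inside Plet1, chr9:50502869-50503868, had 51.3 and 33.4 CPM against 11.6 and 10.8 in class 3 and scored up to 0.757, with a distal neighbour 2201 bases away. It scored 0.297 with the Plet1 promoter region.

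Other distal regions in the lead lay by Wfdc18, inside Cmas and far from genes. The region chr11:83716646-83717645, 5286 bases from Wfdc18, had 26.8 and 22.0 CPM against 9.79 and 5.58 in class 3 and no more than 0.982 in classes 1 and 2. It scored 0.386 with the Wfdc18 promoter region and 0.442 with that of Ccl9, 138803 bases away. A region inside Cmas, chr6:142759437-142760436, was shared with class 3, at 52.9 and 44.8 CPM against 50.8 and 39.5. A region 246085 bases from Klf6, chr13:5614405-5615404, had 36.9 and 37.2 CPM against 17.1 and 23.1. Among regions near the markers, chr5:75640180-75641179 inside Kit had 15.0 and 13.7 CPM, 0 in classes 1 and 2, and a score of 0.337 with the Kit promoter region. The region near Muc4 with the most class 7 reads, chr16:32688402-32689401, had 35.0 and 21.6 CPM, with 30.5 and 22.4 in class 2. That near Ccl9, chr11:83534248-83535247, had 36.9 and 31.9 CPM, with 29.4 and 29.5 in class 3. That near Plet1, chr9:50475930-50476929, did not pass, at 57.5 and 60.7 CPM with 40.6 and 33.9 in class 2. These regions thus fall into some that class 3 shares, as in Cmas, and some it has at a lower level, as at Lcn2 and Plet1.

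Of 13167 promoter regions, 278 (2.11%) were higher than the other classes and 98 (0.744%) lower, and the median promoter stood at 0.31. Pooling the other classes gave 134 higher and 253 lower (73.9% against 34.6% higher). The Lcn2 promoter region, chr2:32387383-32388382, had 69.6 and 64.9 CPM, with 23.3 and 23.9 in class 3 and 38.7 and 33.4 in the basal class 1. The Wfdc18 promoter region, chr11:83708285-83709284, had 24.8 and 25.4 CPM with 23.3 and 23.1 in class 3, and that of Kit, chr5:75574377-75575376, had 26.1 and 25.4 with 30.6 and 32.3. The Plet1 promoter region, chr9:50493917-50494916, did not pass, at 35.6 and 32.6 CPM with 26.2 and 25.6 in class 2. The promoter region near Muc4 with the most class 7 reads, at an end of Muc20, did not pass either. That of Ccl9 was under the level filter. The promoter regions furthest below the other classes included a pair without any class 7 read. Fbn1, which encodes the matrix protein fibrillin-1, had 0 reads at chr2:125505573-125506572 in both libraries. Set against a floor of 3 reads over both libraries it was at least 25.6-fold lower than the arithmetic mean of 13.5 CPM in the other classes. Frmd4b had 0 reads at chr6:97616725-97617724, at least 20.8-fold lower than 11.0 CPM. The true bounds are smaller, since both ends of a fragment are listed as reads. Classes 3 and 2 were low in both regions too, and neither region passed against class 3. Fbn1 had 1.84 and 4.39 CPM in class 3 and 0.903 and 2.22 in class 2, with 17.6 and 32.9 in class 1. Frmd4b had 1.22 and 2.79 CPM in class 3 and 3.39 and 2.42 in class 2, with 11.7 and 27.5 in class 1.

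Beyond the markers, 5 of 12 other luminal progenitor genes were higher than the other classes, beside 1.38% of all genes, with a median difference of 0.85 over the list, and 3 of 12 with the other classes pooled. Wfdc18, a small secreted WAP-domain protein gene, had 31.7 and 33.4 CPM against means of 4.16 and 3.86 (difference 2.52 ± 0.10). Its class 3 level was the same within the replicate spread, 38.0 and 28.3 CPM. Sox10, a transcription factor of neural crest and mammary progenitors, had 78.1 and 86.2 CPM (difference 2.01 ± 0.73). Elf5 had 55.2 and 59.2 CPM, 1.22 ± 0.08 above the other classes but below class 3, which had 68.6 and 67.0. Csn3, encoding the milk protein kappa-casein, and the folate receptor gene Folr1 also passed. The windows of Wfdc18, Sox10 and Elf5 overlap Wfdc17, Polr2f and Cat, whose reads cannot be told apart from theirs. Against class 3 the median of the 12 genes was 0.01 and none passed, so the list did not separate classes 7 and 3.

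Of 12 general luminal genes 7 were higher, beside 1.38% of all genes, with a median of 1.23. With the other classes pooled 1 of 12 passed, beside 115 of 16062 genes. Ehf, an epithelial ETS factor gene, had 177 and 187 CPM against 48.1 and 46.8. Krt8 and Krt18, the paired simple keratin genes of luminal cells, had 207 and 171 CPM and 80.4 and 63.4 CPM, with differences of 1.59 and 1.38, and 1.86 and 1.54. The tight-junction genes Cldn3, Cldn4 and Cldn7 and the sorting marker Epcam completed the set. The lowest were Grhl2 and Cd24a, with differences of 0.87 and 0.49, and 0.47 and 0.60. The list summed to 1359 and 1309 CPM in class 7, 1241 and 1142 in class 2 and 1104 and 1022 in class 3. None of the 12 genes passed against class 3, so the other luminal classes were close in this list.

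Of 12 innate defence genes tested, 3 were higher, beside 1.38% of all genes: Lcn2, Lbp, which encodes the lipopolysaccharide-binding protein, and Nfkbia, the inhibitor of NF-kB that NF-kB itself induces. Lcn2 is also a marker that names the class, and it enters the summed level of this list. Lbp had 37.3 and 30.7 CPM against 7.89 and 9.95 (differences of 1.99 and 1.45). Nfkbia had 227 and 191 CPM against 105 and 90.5, and 153 and 149 in class 3 (1.09 and 1.06 above the other classes). With the other classes pooled, or with CPM over distal reads, 2 of the 12 passed. The neutrophil chemokine genes Cxcl1 and Cxcl2 passed in replicate 1 alone, at 102 and 55.0 CPM and at 79.4 and 48.6 CPM. Lpo, lactoperoxidase, was lowest, with 6.54 and 11.4 CPM against 13.4 and 11.6. Saa1 was under the level filter and Chi3l1 was not matched. The summed level of the list was 957 and 783 CPM in class 7 and 562 and 512 in class 3, the highest of the classes compared in both libraries. Class 7 also ranked first for the sums of general luminal, immediate early and housekeeping genes, the last at 806 and 813 CPM against 640 and 644 in class 3.

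Several of the major milk protein genes were too low to compare. Of 14 milk protein and alveolar genes, 6 failed the level filter, among them Csn2, Wap and Lalba, and 2 of the 8 tested were higher, Csn3 and Elf5, beside 1.38% of all genes. Both were already counted among the other progenitor genes. Csn3 had 16.7 and 27.0 CPM in class 7 and 27.5 and 35.5 in class 3. Stat5a, a mediator of prolactin signalling, was lowest of the tested members, with 57.5 and 56.2 CPM against 66.6 and 57.2.

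Of 16 mammary transcription factor genes 3 were higher, beside 1.38% of all genes: Sox10, Ehf and Elf5. The lists overlap: Sox10 and Elf5 were already counted among the other progenitor genes, and Ehf among the general luminal genes. Foxc1 just missed, with 87.3 and 83.9 CPM against 43.2 and 33.1. Myb and Runx1 were lowest, with differences of -0.63 and -0.35, and -0.15 and 0.13. None of 12 Notch pathway genes passed against the other classes, in a list with a median of 0.26. The receptor gene Notch1 came nearest from above with 0.91 and 1.06 (144 and 142 CPM against 75.7 and 67.0), and the ligand gene Jag2 from below with -1.47 and -0.98 (9.15 and 12.1 CPM against 28.8 and 25.9). Under CPM over distal reads, or with the other classes pooled, 1 of the 12 was lower. Jag2 was also lower than class 3, with a difference of -1.63 in replicate 1 and one just past the rule in replicate 2.

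All 12 immediate early genes, which cells switch on within minutes of stress or growth signals, lay above 0 in both libraries, yet none reached 2-fold. Their median was 0.64, beside 0.15 for all genes, and with the other classes pooled 11 of 12 lay above 0. Zfp36, an mRNA-decay factor, had 236 and 219 CPM against 129 and 114, and Jun was lowest, 0.27 and 0.16. The class also had the largest promoter share of the clusters with at least 50 nuclei, and the part of that share in the result was not tested. None of 12 housekeeping genes passed, and their median was 0.38. Actb was highest of them, at 0.78 and 1.01, and B2m lowest, at -0.16 and -0.22.

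Most markers of the other mammary cell types lay below the other classes, but few reached 2-fold. Of 12 mature luminal genes 0 were higher and 1 lower, beside 1.87% of all genes lower, with a median of -0.42 and 9 below 0 in both libraries. The lower gene was Pgr, the progesterone receptor, at 29.1 and 27.7 CPM against 71.5 and 86.3. Esr1, the oestrogen receptor alpha gene, had 84.7 and 80.1 CPM against 132 and 159. Wnt4 lay above 0, with a mean difference of 0.37, and Prlr was level, at 0.006. Of 12 basal genes 1 was lower, Krt5, with 0 and 2 reads, and 10 lay below 0. Itga6 went the other way, with a mean difference of 0.31. With the other classes pooled, Wnt4, Prlr and Itga6 each fell below 0. Summed basal levels were 437 and 433 CPM, against 1146 to 1597 in the basal classes 1 and 8 and 509 and 532 in class 3. The mature luminal classes were lower than class 7 in these genes, with 390 and 379 in class 2 and 409 and 372 in class 11, as was class 6 with 298 and 320. Summed mature luminal levels were 532 and 523 CPM, against 1178 to 1360 in classes 2 and 11.

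Of the genes of cells outside the epithelium 1 passed. Of 7 stromal genes tested 1 was lower, Dcn, beside 1.87% of all genes, and the 8 listed genes summed to 124 and 107 CPM against 620 and 605 in the stromal class 6, place 5 of 8 and 6 of 9 among the classes. Lum, a stromal proteoglycan gene, had 0 and 3 reads. Of 6 endothelial genes none passed, and they summed to 126 and 145 CPM, against 251 and 239 in class 6, place 8 of 8 and 8 of 9. Of 6 immune genes tested none passed, with a median of 0.24, above the 0.15 of all genes. They summed, with the 4 under the filter, to 85.6 and 96.4 CPM against 159 and 106 in class 6, place 5 of 8 and 3 of 9, so the class was not low in them. Lyz2 had 0 and 4 reads. Of 4 adipocyte genes tested none passed, with sums in place 5 of 8 and 8 of 9, and Adipoq had 2 and 0 reads.

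Among genes on no list, the largest higher differences belonged to Slc28a3, Klk14, Timd2, Lyg1 and 1700014D04Rik. Slc28a3, a nucleoside transporter gene at chr13:58553307-58610877, had 167 and 165 CPM against 38.0 and 27.5, and 126 and 77.7 in class 3. Klk14, a secreted serine protease gene, had 36.9 and 37.2 CPM against 9.19 and 3.84, in a window that overlaps Ctu1. Timd2, a receptor for ferritin in mice, had 26.1 and 34.5 CPM against 4.02 and 7.25. Lyg1, which encodes a goose-type lysozyme, had 39.9 and 33.4 CPM against 9.94 and 5.21. Of these genes, none passed against class 3, where Timd2, Klk14 and 1700014D04Rik were lower in replicate 1 and higher in replicate 2.

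Genes lower in class 7 were led by Ptpn5, a tyrosine phosphatase gene, at 5.23 and 9.49 CPM against 58.0 and 58.1 (differences of -3.05 and -2.39). Its region chr7:47108319-47109318 had 1 and 2 reads in class 7 and 74.5 and 72.7 CPM in the mature luminal class 2. Class 3 was as low there, with 0 and 1.59 CPM, and class 1 had 2.34 and 7.86. Ror2, a Wnt5a receptor gene, had 12.7 and 14.8 CPM against 80.4 and 78.5. Bdnf, a neurotrophin gene, had 8.50 and 11.8 against 55.5 and 70.5, and Trim29 had 11.8 and 10.6 against 53.7 and 64.8. Ror2, Bdnf and Trim29 were lower than class 3 too, with Ror2 at -1.64 and -1.65. Shc2, Bmp3, Serpinb11, Pcare, Wnt2 and Slitrk6 made up the rest of the first 10, each with 15 reads or fewer in either library. Bmp3 differed between libraries, with 13 and 0 reads.

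Class 7 and class 3 differed in few genes. By the same 2-fold rule 33 of 16062 genes (0.205%) were higher in class 7 than in class 3 and 227 (1.41%) lower. With CPM over distal reads, 19 were higher and 314 lower. Lcn2 led the first group, at 1.98 and 1.59. The other 4 with the largest differences were low and in windows shared with other genes. Rrp36, a ribosomal RNA processing gene, had 18.3 and 19.4 CPM against 3.67 and 5.98, and Polrmt, the mitochondrial RNA polymerase, had 16.3 and 20.1 against 6.12 and 3.99. Tm4sf5 and Gm39270 had 21.3 CPM or less. The genes lower than class 3 had a median level of 16.5 CPM over adult nuclei, under the 34.0 of all genes tested. Sox17, at 0 and 7.21 CPM against 17.8 and 18.7, led them.

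Promoter regions stood further above class 3 than distal regions did. Of promoter regions 166 (1.26%) were higher than class 3 and 74 (0.562%) lower, with a median of 0.29. Of distal regions 399 (1.09%) were higher and 320 (0.874%) lower, with a median of 0.08. With CPM over distal reads these became 115 and 89 promoter regions, and 308 and 398 distal regions, so the higher share fell from 69.2% to 56.4% and from 55.5% to 43.6%. Differences from class 3 repeated less well than those from the other classes: across distal regions their correlation between libraries was 0.206 against 0.728, and across promoter regions 0.321 against 0.515. Regions are not independent and the values share each library's depth.

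The largest motif differences from the other classes were those of ELF-type ETS motifs, which class 3 shared. A deposited chromVAR score gives how far regions holding a motif are more open in a nucleus than in the average, and a motif was called at a difference of 0.5 in both libraries. Of 427 motifs 32 (7.49%) were higher than the other classes and 19 (4.45%) lower, and the median motif stood at 0.02. Only 388 score columns were distinct, so some motifs repeat each other.

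The highest was Elf5, whose mean score was 1.78 and 1.69 in class 7, 1.82 and 1.47 in class 3 and -0.01 and -0.28 over the other classes (difference 1.89 ± 0.13, and 0.09 from class 3). The related Elf3, Elf1 and Ehf followed at 1.84 ± 0.14, 1.56 ± 0.09 and 1.51 ± 0.12. These share nearly the same letters, so the scores do not tell which factor binds. Over the ETS family 6 of 18 motifs were higher, with a median of 0.12, down to Elk1 at -0.15. Against class 3, 17 of 18 lay above it in both libraries, with a median of 0.28 and Elf5 lowest. Within the class the Elf5 score was above 0 in 93.3% and 89.0% of nuclei, with an SD over nuclei of 1.30 and 1.34.

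All 5 NF-kB motifs were higher, with a median of 0.91. Nfkb1 scored 1.5 and 1.72 in class 7, 1.16 and 0.99 in class 3, and 0.75 and 0.33 over the other classes. The next class was class 10 in replicate 1 and class 3 in replicate 2, and class 7 lay above both. It also had the largest difference from class 3 of the 427 motifs, 0.54, and all 5 NF-kB motifs were above class 3 in both libraries. Relb, the lowest of the family, still differed from the other classes by 0.65. Nfkb1 was above 0 in 80.9% and 82.9% of class 7 nuclei.

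Further families stood above the other classes but compared differently with class 3. All 4 NFI motifs passed, led by Nfic at 1.03 ± 0.10, with a median of 0.01 against class 3. Of 4 C/EBP motifs, factors that work with STAT5 in alveolar cells, 3 passed, Cebpd first at 0.67, and all 4 lay above class 3 in both libraries with a median of 0.24. Of 7 SOX motifs 3 passed, Sox4 first at 0.88, and 6 of 7 lay below class 3. Grhl1, of the grainyhead epithelial factors, differed by 0.91 from the other classes and by -0.30 from class 3.

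Most AP-1 motifs, and some FOX and p53-family motifs, were low. Of 14 AP-1 motifs 11 were lower, led by Fos at -1.55 ± 0.45, whose score was -0.27 and -0.61 in class 7 and 2.43 and 3.05 in the mature luminal class 2. Of 7 FOX motifs 3 were lower, with a median of -0.37. Foxa1, a pioneer factor of hormone-sensing cells, differed by -1.49 ± 0.27, with 3.70 and 4.20 in class 2. Of 3 p53-family motifs 2 were lower and the other stood at 0.04. Trp73 and Trp63 differed by -1.30 ± 0.10 and -1.20 ± 0.05. Trp73 scored 2.97 and 2.94 in the basal class 1, and the mean of the other classes includes these high values. Against class 3 the AP-1 and FOX signs turned: 13 of 14 AP-1 and 7 of 7 FOX motifs were above class 3 in both libraries, with medians of 0.31 and 0.38.

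**Figure D5:**
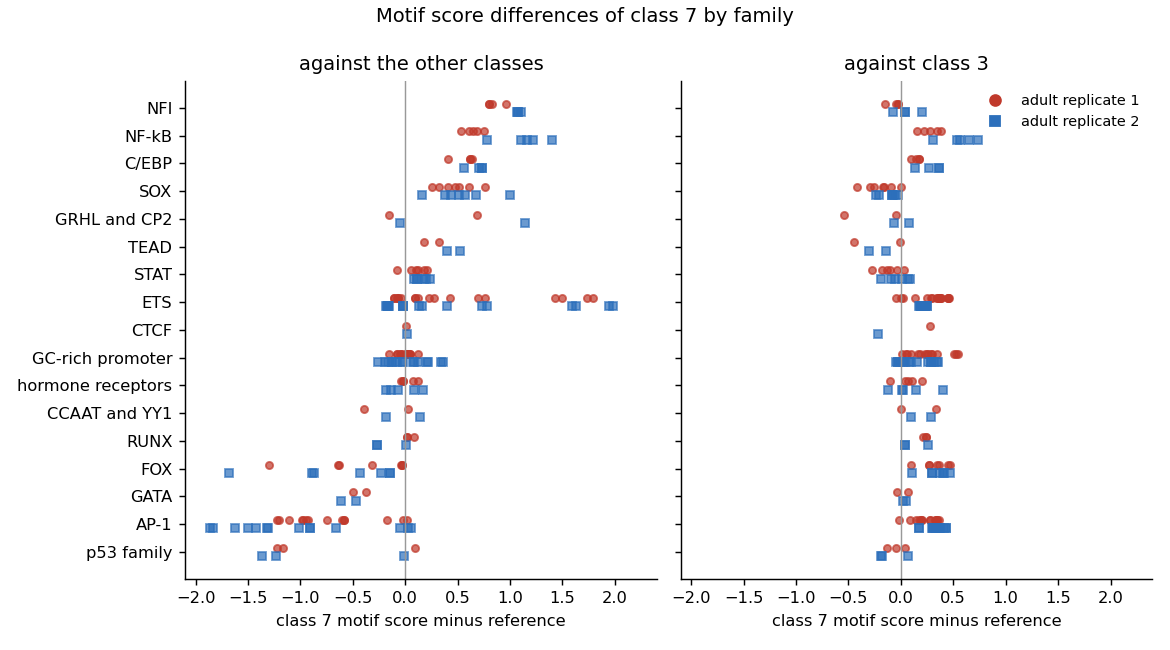
Motif score of class 7 minus the mean of the other adult classes (left) and minus class 3 (right), in deviation-score units, by motif family, with 1 point per motif and adult library. The 5 NF-kB motifs lie above 0 in both panels, and 11 of 14 AP-1 motifs are lower than the other classes while 13 of 14 lie above class 3.

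Against class 3 no motif reached 0.5 in both libraries in either direction (0.0% called). Of the 427 motifs 250 lay above class 3 in both libraries and 77 below, with a median of 0.08. The GC-rich promoter motifs stood above it in 11 of 15 cases, Sp3 first at 0.41, while none of the 15 passed against the other classes. Within class 7, nuclei with a larger promoter share scored higher for Sp1 (r = 0.374 and 0.400 across nuclei) and lower for Fos (r = -0.383 and -0.267). For Elf5 the r was -0.138 and -0.0788. Nuclei of a library are not replicates, and score and share come from the same reads.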

How the data were processed

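Reads of mouse single-nucleus ATAC-seq libraries were taken as deposited, as lists of positions with a barcode. The submitters' processing notes name Bowtie2, MACS2, bedtools and the build mm10; their settings and the clustering method are not given in the sources used here. The authors' deposited table gave the class, the count of reads per nucleus and a chromVAR deviation score per motif, and a further deposited file gave Cicero co-accessibility scores. A deposited gene score table with 7846 numbered columns that matched no sample was not used. Reads were summed per class and library over RefSeq gene spans (GRCm38.p6) and over the authors' regions, overlapping by at least 1 base. Genes with a mean of at least 5 CPM over adult nuclei and regions with at least 3 CPM were compared, with a pseudocount of 2 CPM. Class members, lists and thresholds were chosen with earlier results of these data known. The rule for names took the markers and the 10 genes with the largest difference in each direction (5 each against class 3). Higher genes needed at least 20 class 7 reads, and lower ones at least 10 CPM in the reference. It also took the 2 highest and 2 lowest members of each list, the extreme motifs of all and of each family, and the extreme regions. Not all of these are given above, and some lists and motif families have no member named. Other list members were named after their values were seen. Counting and comparison used Python 3.11.15 with pandas 2.3.3 and numpy 2.4.6, intervals scipy 1.17.1, and plots matplotlib 3.10.9.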

Additional observations from a re-analysis of the deposited data

How the results depend on the processing

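No paired analysis was possible because the results come from no test: the classes were drawn from the same reads. Each difference was itself taken between classes of 1 library, and the 2 adult libraries are given side by side. The counts of features past the fold rule moved with its settings, in pairs of higher and lower. For gene spans against the other classes (222 and 301) a pseudocount of 5 CPM gave 146 and 186, pooling the other classes 115 and 487, a difference of 0.58 in place of 1 gave 1123 and 1022, and a single library gave 432 to 537 and 674 to 677. Against class 3 (33 and 227) a pseudocount of 0.5 gave 55 and 369, of 5 gave 17 and 92, a difference of 0.58 gave 677 and 1052, and a single library 290 to 522 and 713 to 898. The higher count there was 19 with CPM over distal reads and 56 over the span alone. For distal regions (3834 and 1491) pseudocounts of 0.5 and 5 gave 7408 and 2885, and 1528 and 207, pooling gave 2176 and 4931, 0.58 gave 8388 and 4343, and a single library 6454 to 6502 and 3158 to 3832. For promoter regions (278 and 98) these were 600 and 201, 106 and 19, 134 and 253, 1462 and 364, and 755 to 847 and 297 to 332. Motif counts (32 and 19) became 4 and 6 at a difference of 1. The median promoter share of 27.2% was 25.4% when a read was assigned by its midpoint. No named gene, motif or region that passed the rule changed sign. Values that had not passed did so in 19 of 936 gene values (Runx1 was 0.13 without adult replicate 1, Stat5a 0.01 over nuclei with at least the median read count), 4 of 265 motif values and 0 of 230 region values. Over all named values, 145 gene values moved by more than the replicate spread and 791 did not, with 24 and 241 for motifs and 66 and 164 for regions. Leaving out 1 library leaves a single library per class, so those counts have no replicate check. Genes called lower than class 3 had a median level of 16.5 CPM and those called higher 29.4, beside 34.0 for all genes tested; the part of read depth in these counts was not tested.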

Other observations

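Other adult lineages also came as a pair of clusters with a larger and a smaller promoter share: the basal classes 1 (25.4% and 25.4%) and 8 (18.6% ± 0.878, SD, n = 2), and the mature luminal classes 2 (25.7% and 23.2%) and 11 (21.2% and 18.1%). Across the 427 motifs the differences of class 7 from class 3 had a correlation of 0.516 with those of class 1 from class 8, and of 0.304 with those of class 2 from class 11. The motifs are not independent of each other, and all classes share the same libraries. For Nfkb1 the differences were 0.34 and 0.73 in the pair 7 and 3, 0.40 and 0.17 in the basal pair and 0.44 and 0.17 in the mature luminal pair. For Fos they were 0.34 and 0.37, 0.24 and 0.68, and -0.12 and -0.25, so the mature luminal pair had the opposite sign. Sp1 differed by 0.54 and 0.26 in the pair 7 and 3, by -0.07 and -0.06 in the basal pair and by 0.09 and 0.08 in the mature luminal pair.

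Class 7 had the highest mean score of the adult classes in both libraries for 16 motifs, among them Elf3, Elf1, Ehf, Nfkb1, Rel, Rela, Relb and Atf4. Within class 7 the Elf5 and Nfkb1 scores of a nucleus had a correlation of 0.163 and 0.165, and the Elf5 score had one of 0.362 and 0.231 with the logarithm of the read count.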
